A study of Mus musculus with 8 samples.

Results

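The amniotic ectoderm is the thin epithelial layer that lines the amniotic cavity of the early mouse embryo. It derives from the proximal epiblast, is continuous with the surface ectoderm of the embryo proper at the border of the amnion, and is backed by a layer of extraembryonic mesoderm on its outer side. Like surface ectoderm it is a non-neural ectoderm, and the genes used to name it include Tfap2a, a transcription factor of non-neural ectoderm, Wnt6, a secreted Wnt ligand, Krt8, a keratin of simple epithelia, and Igfbp3, a secreted binding protein of insulin-like growth factors. The cells described here were those to which the combined annotation of the deposited cell table gave the name amniotic ectoderm, and there were 468 of them among 28723 cells. Of these, 360 were Eomes-KO cells and 108 were WT host cells.

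The study asked what the T-box transcription factor Eomes does in early lineages by following Eomes-KO and WT cells within the same chimeric embryos. Mouse embryonic stem cells (ESC) that carry a tdTomato reporter, a red fluorescent protein, and null alleles of Eomes made by CRISPR deletion were injected into WT blastocysts of the C57BL/6 strain, and the embryos were collected at E8.5 by the labels. Cells of pooled embryos were sorted by fluorescence into a tdTomato+ fraction, the Eomes-KO descendants of the ESC, and a tdTomato− fraction, the WT host cells, and both were profiled by droplet single-cell RNA-seq. This gave 4 Eomes-KO libraries, here K1 to K4, each from a pool made with another ESC clone by the study's methods, and 4 WT host libraries, here W1 to W4. The numbers only name the libraries and pair none of them. No library held injected WT ESC, so the loss of Eomes and the ESC origin of the mutant cells cannot be told apart.

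K1 to K4 held 602, 3346, 3465 and 1153 cells, and W1 to W4 held 2414, 5819, 3791 and 8133 cells. Their summed UMIs (unique molecular identifiers, the molecules counted) ran between 19370600 and 57481950 in the Eomes-KO libraries and between 20512404 and 66414390 in the WT host libraries. Of all barcodes, 80 occurred in more than 1 library, and 2 amniotic ectoderm cells carried such a barcode. The table analysed has a row for each cell with its labels and quality measures, and gene counts were not analysed here. The 4 marker genes above were therefore not checked, and the name of these cells rests on the label transfer of the authors, who matched each cell to its 15 nearest cells in an atlas of mouse gastrulation and gave it the label most frequent among them.

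Each cell had 3 labels of type: an original atlas label, a finer extended atlas label and the combined label of the authors. All 468 amniotic ectoderm cells had the original label of surface ectoderm and the extended label of amniotic ectoderm, and they were all 468 cells with that extended label. The original labels thus held no separate amniotic population. The combined annotation split 2490 cells of original surface ectoderm (948 Eomes-KO, 1542 WT host) into these 468 and 2022 that stayed surface ectoderm (588 Eomes-KO, 1434 WT host). The cells that stayed surface ectoderm were the most similar label by annotation and served as the main comparison below. Among them the most frequent extended label was non-neural ectoderm, with 348 of 588 Eomes-KO cells (59.2%) and 582 of 1434 WT host cells (40.6%). The next was pharyngeal endoderm, with 90 Eomes-KO cells (15.3%) and 282 WT host cells (19.7%), so this comparison group was not ectoderm alone by the extended labels.

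Amniotic ectoderm took a larger share of the Eomes-KO cells than of the WT host cells. Shares were taken of the epiblast-derived cells, which leave out visceral, parietal and extraembryonic endoderm and extraembryonic ectoderm, since the injected ESC contribute little to those. The Eomes-KO libraries K1 to K4 held 68, 55, 200 and 37 amniotic ectoderm cells, or 11.3%, 1.64%, 5.77% and 3.22% of epiblast-derived cells. The WT host libraries W1 to W4 held 9, 48, 9 and 42, or 0.376%, 0.931%, 0.239% and 0.526%. Every Eomes-KO library thus lay above every WT host library, and K2, the lowest of the Eomes-KO libraries, had an exact binomial 95% interval of 1.24% to 2.13%, against 0.688% to 1.23% in W2, the highest of the WT host libraries. Such a separation was found for 7 of the 33 combined labels with at least 10 cells (21.2%), so it was not particular to amniotic ectoderm. The binomial intervals cover counting error only.

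The mean share was 5.49 ± 4.24% in Eomes-KO libraries and 0.518 ± 0.299% in WT host libraries (SD, n = 4 each; two-sided exact permutation p = 0.029, which is as low as the 70 arrangements can give). With all libraries of a genotype joined, the share was 4.21% of 8561 Eomes-KO cells and 0.560% of 19284 WT host cells, a ratio of 7.51. The spread within the Eomes-KO libraries was wide, with K1 at 11.3% and K2 at 1.64%. In edgeR's quasi-likelihood test over the 33 combined labels, the share was 10.0-fold higher in Eomes-KO cells (log2 fold change 3.32, SE 0.59, Benjamini-Hochberg adjusted p = 0.00012). By this test 21.2% of the labels were higher and 48.5% were lower in Eomes-KO cells, and amniotic ectoderm had the second highest log2 fold change, below the primordial germ cells at 4.34. The share of a label that is not lost goes up as others are lost, and without the K1 library the log2 fold change was 2.74. It was 2.38 with DESeq2's ratio size factors and 4.46 when members needed all 15 neighbours with the label.

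**Figure D1:**
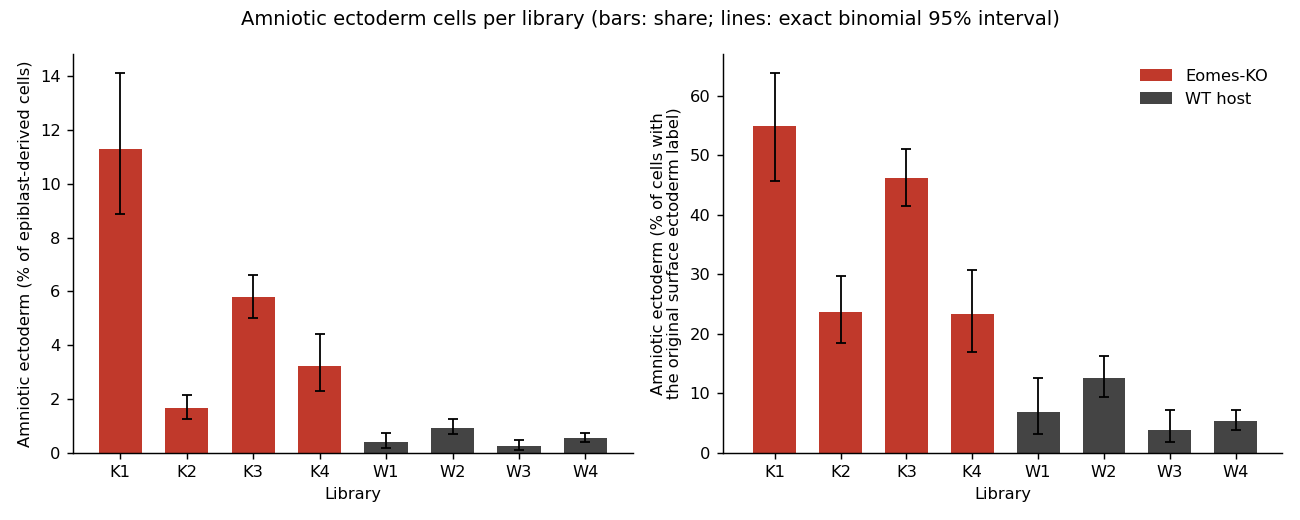
Amniotic ectoderm cells in each library as a percentage of epiblast-derived cells (left) and of the cells with the original label of surface ectoderm (right), with bars for the share and lines for the exact binomial 95% interval. The 4 Eomes-KO libraries lie between 1.64% and 11.3% on the left and between 23.3% and 54.8% on the right, all above the 4 WT host libraries, which reach 0.931% and 12.6%.

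**Figure D2:**
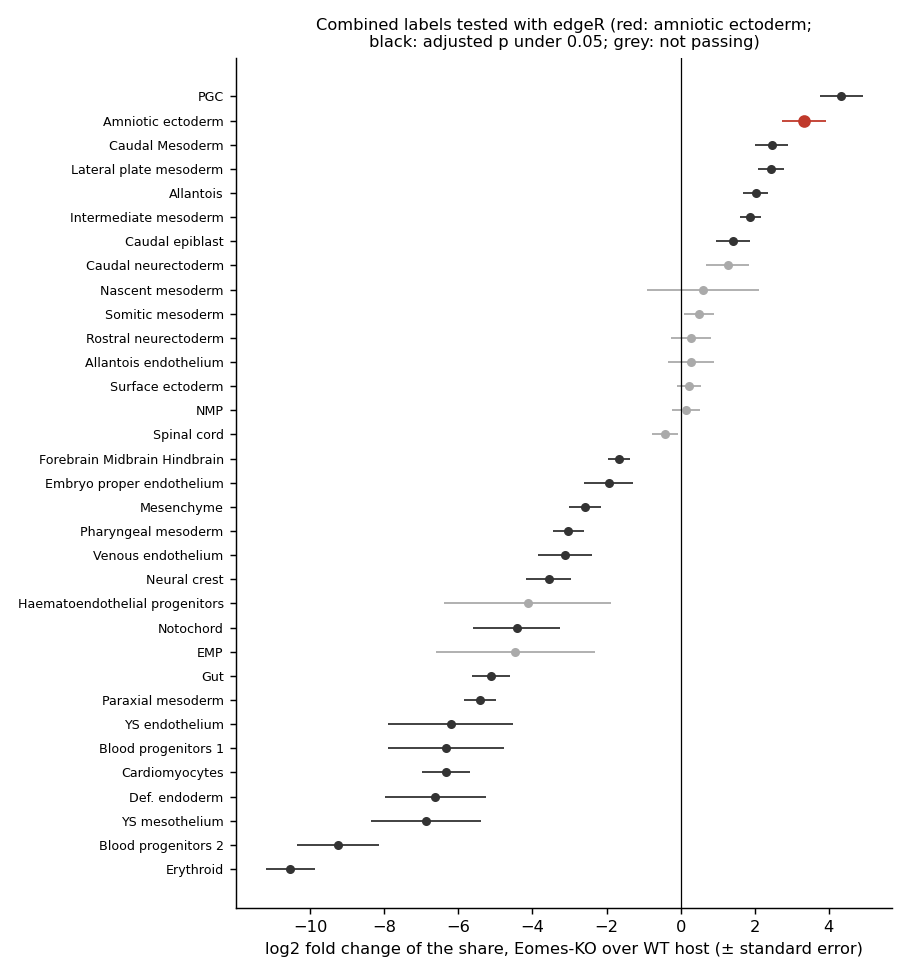
The log2 fold change of the share of epiblast-derived cells, Eomes-KO over WT host, with its standard error, for the 33 combined labels tested with edgeR. Amniotic ectoderm, in red at 3.32, is second from the top, and surface ectoderm lies near 0. The values of labels with no or few Eomes-KO cells, at the far left, depend on the prior count of the fit.

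The extended labels gave the same cells a test among 69 finer labels. There the share of amniotic ectoderm was again higher in Eomes-KO cells (edgeR log2 fold change 3.31, SE 0.56, adjusted p = 3.5e-05), and it again ranked second. Of these 69 labels, 10.1% were higher and 63.8% were lower in Eomes-KO cells. Since the members are identical under both annotations, this is the same increase measured against other labels and not a second observation.

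The share of surface ectoderm did not pass the test between genotypes. It made up 7.99 ± 2.42% of epiblast-derived cells in Eomes-KO libraries and 6.77 ± 1.84% in WT host libraries (SD, n = 4 each; exact permutation test, p = 0.37), and its edgeR log2 fold change was 0.22 (SE 0.32, adjusted p = 0.56). The call and its direction depended on the scaling and the score filter. With DESeq2's ratio size factors the log2 fold change of surface ectoderm was −0.81 (adjusted p = 0.041), and with only cells whose 15 neighbours all had the label it was 1.01 (edgeR adjusted p = 0.019), while that of amniotic ectoderm kept its sign and its call under both. The original surface ectoderm label, which joins both, took 13.5 ± 5.63% in Eomes-KO libraries and 7.29 ± 1.92% in WT host libraries (SD, n = 4 each; exact permutation test, p = 0.086). By edgeR over the original labels it was higher in Eomes-KO cells (log2 fold change 0.87, SE 0.34, adjusted p = 0.028).

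The balance between these neighbouring ectoderm labels was then compared directly, since their ratio leaves out the lineages outside these labels. Its denominator still differed in make-up between genotypes. Epidermis, for example, was 0.340% of the Eomes-KO and 4.60% of the WT host surface ectoderm cells, with libraries joined. Non-neural ectoderm went the other way, at 59.2% and 40.6%. Pharyngeal endoderm, an endoderm label, was 15.3% and 19.7% of this denominator. Amniotic ectoderm was 54.8%, 23.7%, 46.2% and 23.3% of the original surface ectoderm cells in K1 to K4, and 6.82%, 12.6%, 3.80% and 5.31% in W1 to W4. In K1 the amniotic cells outnumbered the surface ectoderm cells, at 68 to 56, whereas in W4 there were 42 to 749. The mean was 37.0 ± 16.0% in Eomes-KO libraries and 7.12 ± 3.83% in WT host libraries (SD, n = 4 each), with no overlap (exact permutation test, p = 0.029). As a ratio, there were 1.21, 0.311, 0.858 and 0.303 amniotic cells for each surface ectoderm cell in K1 to K4, and 0.0732, 0.144, 0.0395 and 0.0561 in W1 to W4. The mean log2 ratio, with 0.5 added to each count, was higher in Eomes-KO libraries by 2.97 (exact permutation test, two-sided, p = 0.029).

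The extended label of non-neural ectoderm gave a second denominator, with 1.55, 0.561, 1.33 and 0.661 amniotic cells for each such cell in K1 to K4, and 0.209, 0.348, 0.129 and 0.127 in W1 to W4. Here too the groups did not overlap, with a log2 difference of 2.29 (exact permutation test, p = 0.029). This denominator was chosen after the extended labels had been seen.

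Eomes-KO and WT host libraries differed in depth, so the share was also taken within bands of UMIs per cell, with libraries of a genotype joined. Among cells with under 5000 UMIs, amniotic ectoderm was 18 of 273 Eomes-KO cells (6.59%) and 35 of 4337 WT host cells (0.807%). With at least 5000 and under 10000 UMIs it was 171 of 2429 Eomes-KO cells (7.04%) and 48 of 8881 WT host cells (0.540%). With at least 10000 and under 20000 UMIs it was 87 of 3879 Eomes-KO cells (2.24%) and 25 of 5898 WT host cells (0.424%). In each band with amniotic cells of both genotypes the share was higher in Eomes-KO cells. K3 held 16 of the 18 Eomes-KO amniotic cells in the lowest band and 158 of the 171 in the next, so these joined shares are mostly those of 1 library. By library, the share with at least 5000 and under 10000 UMIs was 16.7%, 1.82%, 7.71% and 5.68% in K1 to K4, with 18 cells in all in K1, and 0.481%, 1.13%, 0.349% and 0.363% in W1 to W4. With at least 10000 and under 20000 UMIs it was 3.57%, 1.77%, 2.18% and 4.09% in K1 to K4, and 0%, 0.741%, 0.137% and 0% in W1 to W4. In both of these bands every Eomes-KO library lay above every WT host library. With under 5000 UMIs K2 (33 cells) and K4 (6 cells) had no amniotic cell. With 20000 UMIs or more amniotic ectoderm was 84 of 1980 Eomes-KO cells (4.24%) and 0 of 168 WT host cells. The latter allows a share of up to 1.79% (3 cells), while the two-sided exact interval reaches 2.17%. K1 held 61 of these 84 cells (11.8% of its 518 cells), and K3 had no cells in this band. K2 was at 1.38%, below both WT host limits, and K4 at 1.93%, below the exact one. Outside K1 this band thus does not separate the genotypes. A band draws unequally on the libraries, so the order of the bands within a genotype was not read as an effect of depth.

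**Figure D3:**
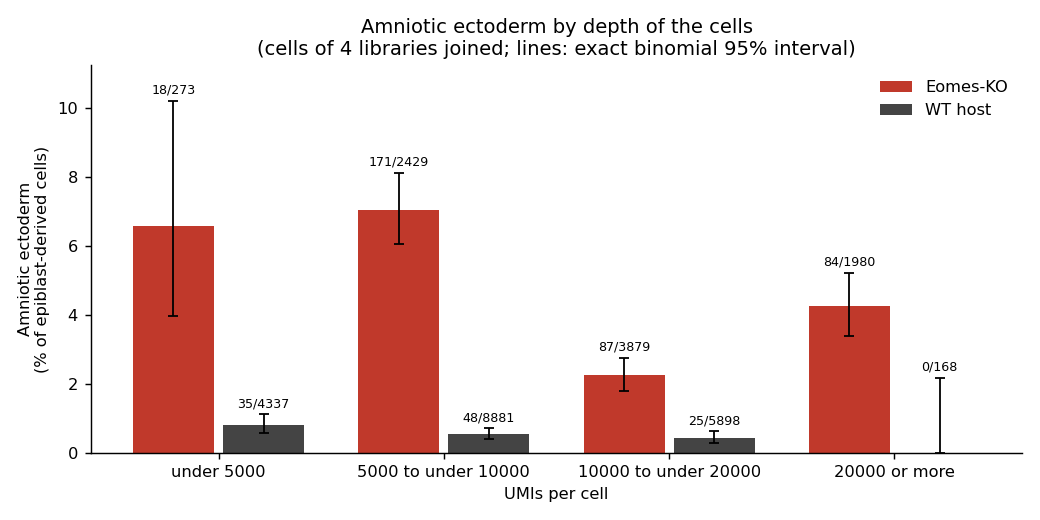
Amniotic ectoderm as a percentage of epiblast-derived cells in 4 bands of UMIs per cell, with the 4 libraries of a genotype joined, the exact binomial 95% interval as lines and the number of amniotic cells over all cells above each bar. The Eomes-KO share is 2.24% to 7.04% over the bands, and the WT host share is at most 0.807%, with 0 of 168 cells in the deepest band. K3 held most of the Eomes-KO amniotic cells under 10000 UMIs, and K1 held 61 of the 84 in the deepest band.

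Within the label, cells were spread over mapped stages. The mapped stage is the embryonic stage of the matched atlas cells and describes which atlas cells a cell resembles, not the age of its embryo. Of the 360 Eomes-KO cells, 26 mapped to E7.75, 178 to E8.0, 45 to E8.25 and 111 to E8.5. Of the 108 WT host cells, 14 mapped to E7.75, 51 to E8.0, 19 to E8.25 and 24 to E8.5. No amniotic cell of either genotype mapped to E7.5, and E8.0 was the most frequent stage in both.

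The mapped stage of amniotic cells was not found to differ between genotypes. The mean stage of a library was 8.17 ± 0.023 days in Eomes-KO libraries and 8.13 ± 0.052 days in WT host libraries (SD, n = 4 each), a difference of 0.040 days (exact permutation test, p = 0.26). Of 5 stage measures, the share at E7.75 came closest to the threshold, with 6.07 ± 2.01% in Eomes-KO and 14.7 ± 7.30% in WT host libraries (SD, n = 4 each; exact permutation test, p = 0.057, adjusted p = 0.29). A single measure at 0.029, the lowest p that this exact permutation can give, would not pass adjustment over 5. W1 and W3 had only 9 amniotic cells each, so 1 cell moved a share there by over 10 percentage points.

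Set against surface ectoderm of the same library, amniotic ectoderm had a different profile of stages. At E8.25 lay 11.8%, 12.7%, 12.0% and 16.2% of amniotic cells in K1 to K4, against 46.4%, 53.1%, 43.3% and 55.7% of surface ectoderm cells. In W1 to W4 the E8.25 shares were 33.3%, 10.4%, 22.2% and 21.4% of amniotic cells, against 60.2%, 52.7%, 56.6% and 44.7% of surface ectoderm cells. In every library a smaller share of amniotic than of surface ectoderm cells thus lay at E8.25. The difference averaged −34.1 percentage points (SD 6.69, n = 8, lower in 8 of 8 libraries; exact sign-flip test, two-sided, p = 0.0078, adjusted p = 0.020).

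The E8.0 share was in turn higher in amniotic than in surface ectoderm cells in 8 of 8 libraries, with means of 46.0% and 18.8% (difference 27.3 points, SD 14.4, n = 8; exact sign-flip test, adjusted p = 0.020). The E8.5 share averaged 26.1% and 22.6% over the 8 libraries (exact sign-flip test, n = 8, adjusted p = 0.55), but the amniotic minus surface difference averaged 15.6 points in Eomes-KO libraries and −8.61 points in WT host libraries (exact permutation test of that difference, n = 4 each, p = 0.057, adjusted p = 0.21). Surface ectoderm itself differed there, with 10.7% to 18.0% of its cells at E8.5 in K1 to K4 and 25.2% to 36.8% in W1 to W4. The E8.5 share of amniotic cells averaged 30.1% in Eomes-KO and 22.0% in WT host libraries (exact permutation test, p = 0.26). Amniotic cells had a lower share at E8.25 than at both E8.0 and E8.5 in 4 of 4 Eomes-KO libraries and in 1 of 4 WT host libraries, W2, while in surface ectoderm E8.25 lay above both in 8 of 8. Against all other epiblast-derived cells of the library, the E8.25 share of amniotic cells was lower by 21.0 points on average, in 8 of 8 libraries (exact sign-flip test, n = 8, adjusted p = 0.039). The E8.0 share did not pass against those cells, at 46.0% and 31.2%, higher in 7 of 8 libraries (exact sign-flip test, n = 8, adjusted p = 0.14). The stage shares were added after the data had been seen. Whether they reflect the make-up of the atlas as well was not tested, since the number of atlas amniotic cells at each stage was not analysed here.

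**Figure D4:**
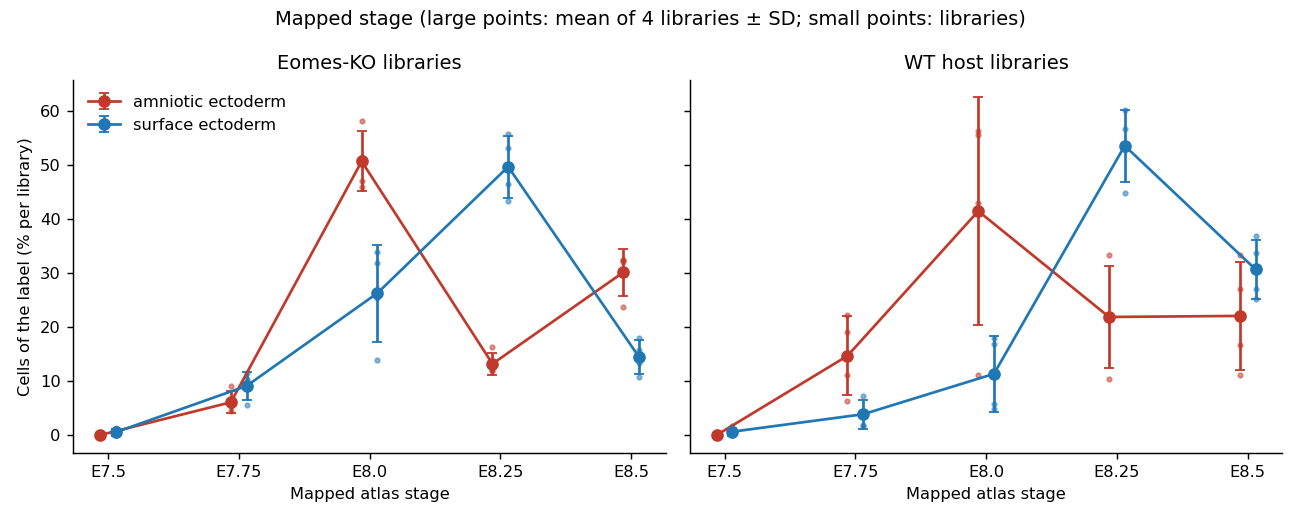
Percentage of amniotic ectoderm (red) and surface ectoderm (blue) cells at each mapped atlas stage, for Eomes-KO libraries (left) and WT host libraries (right), with large points and lines for the mean of 4 libraries ± SD and small points for single libraries. Over all 8 libraries amniotic cells average 17.5% at E8.25, against 51.6% of surface ectoderm cells, and 46.0% at E8.0, against 18.8%.

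How well the cells matched the atlas label was read from the label score, the fraction of the 15 nearest atlas cells with the label. All 15 neighbours were amniotic ectoderm for 291 of 360 Eomes-KO cells (80.8%) and 65 of 108 WT host cells (60.2%). By library this was 89.7%, 74.5%, 79.5% and 81.1% in K1 to K4, against 66.7%, 72.9%, 44.4% and 47.6% in W1 to W4. The groups did not overlap, though K2 and W2 lay close. The mean was 81.2 ± 6.31% in Eomes-KO libraries and 57.9 ± 14.0% in WT host libraries (SD, n = 4 each; exact permutation test, p = 0.029, a measure chosen after its values had been seen). Among cells with 5000 to 15000 UMIs K1 had only 3 amniotic cells and was left out, and the means were 78.6 ± 1.76% in Eomes-KO libraries (SD, n = 3) and 58.6 ± 16.3% in WT host libraries (SD, n = 4). That difference did not pass (exact permutation test over 35 arrangements, p = 0.11), and W1 and W2 lay close to the Eomes-KO values. The score also went with mapped stage. Its mean was 1 at E8.5 in both genotypes, against 0.856 to 0.955 in Eomes-KO and 0.821 to 0.906 in WT host cells at earlier stages. With libraries joined, E8.5 held 30.8% of Eomes-KO and 22.2% of WT host amniotic cells. Whether this mix of stages takes part in the difference was not tested. Few matches were weak: 7 Eomes-KO and 4 WT host cells had under 8 of 15 neighbours with the label, and the lowest number was 5.

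The extended label of amniotic cells was also carried by more of their neighbours than that of surface ectoderm cells. The per-library median score averaged 0.983 in amniotic and 0.683 in surface ectoderm cells, a difference of 0.30 (SD 0.050, n = 8, higher in 8 of 8 libraries; exact sign-flip test, adjusted p = 0.021). Amniotic cells were defined by the extended label that is scored, while surface ectoderm cells carried several extended labels. How far the difference follows from this choice of cells was not tested. For the original label of surface ectoderm, all 15 neighbours had it for 349 of 360 Eomes-KO and 104 of 108 WT host amniotic cells. The stage label was less uniform among their neighbours, with a mean of the median scores of 0.463 in amniotic cells and 0.592 in all other epiblast-derived cells (lower in 8 of 8 libraries; exact sign-flip test, n = 8, adjusted p = 0.010). Against surface ectoderm, at 0.525, the amniotic score was lower in 6 of 8 libraries and did not pass (exact sign-flip test, n = 8, adjusted p = 0.05).

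The quality measures of amniotic cells were then compared between genotypes and, within libraries, with other cells. Median UMIs per amniotic cell were 31165.5, 14986, 7496 and 16706 in K1 to K4, and 8033, 9645.5, 9435 and 4469.5 in W1 to W4. K3, the library with most amniotic cells, was below 3 of the 4 WT host libraries, and the groups overlapped. The mean was 17588 ± 9895 in Eomes-KO and 7896 ± 2394 in WT host libraries (SD, n = 4 each; exact permutation test, p = 0.11, adjusted p = 0.46). None of 8 measures passed between genotypes, and 0 had an unadjusted p under 0.05 by exact permutation of medians. Exact permutation of 4 against 4 libraries cannot give a p under 0.029, so a single measure at that floor would not pass adjustment over 8. The lack of a call is therefore no evidence that the genotypes were equal. The mean of the extended label score had an unadjusted p of 0.029 by exact permutation, with averages of 0.953 in Eomes-KO libraries and 0.908 in WT host libraries (adjusted p = 0.23).

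Within libraries, amniotic ectoderm cells had a higher mitochondrial and a lower ribosomal percentage of UMIs than surface ectoderm cells. The median mitochondrial percentage was 2.26%, 1.72%, 2.07% and 1.64% in amniotic cells of K1 to K4, against 2.13%, 1.39%, 1.89% and 1.42% in their surface ectoderm cells. In W1 to W4 it was 2.13%, 1.995%, 1.68% and 1.93% in amniotic cells, against 1.46%, 1.83%, 1.17% and 1.76% in surface ectoderm cells. The difference was thus positive in 8 of 8 libraries and averaged 0.296 points (SD 0.196; exact sign-flip test, n = 8, adjusted p = 0.021).

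The ribosomal percentage, the part of UMIs from ribosomal protein genes, was 24.5%, 26.3%, 24.1% and 24.7% in amniotic cells of K1 to K4, against 26.6%, 27.6%, 26.9% and 28.6% in surface ectoderm cells. In W1 to W4 it was 24.6%, 23.3%, 26.5% and 23.3% in amniotic cells, against 26.0%, 25.2%, 27.3% and 25.1% in surface ectoderm cells. Amniotic cells were lower in 8 of 8 libraries, by 2.03 points on average (SD 0.968; exact sign-flip test, n = 8, adjusted p = 0.021). Against all other epiblast-derived cells the differences were 0.296 points for the mitochondrial and −1.60 points for the ribosomal percentage, again in 8 of 8 libraries each (exact sign-flip test, n = 8, adjusted p = 0.010 for both).

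Amniotic cells also held fewer UMIs than the other epiblast-derived cells of their library, with a mean difference in the median of −1364 (SD 651, lower in 8 of 8 libraries; exact sign-flip test, n = 8, adjusted p = 0.010). Against surface ectoderm the difference was −2103 UMIs, lower in 7 of 8 libraries, with W3 the exception (exact sign-flip test, n = 8, adjusted p = 0.031). It averaged −3901 UMIs in the Eomes-KO libraries, 3 of which were the deepest per cell, and −305 UMIs in the WT host libraries (exact permutation test of that difference, n = 4 each, p = 0.029, adjusted p = 0.19). The call of fewer UMIs than surface ectoderm over all 8 libraries was lost when any 1 of 7 libraries was left out, and held without W3. Neither the number of genes (adjusted p = 0.11) nor the doublet score (adjusted p = 0.63), which scores how much a cell resembles a mixture of other cells, passed against surface ectoderm (exact sign-flip tests, n = 8). In all, 10 of 16 within-library comparisons passed, counting the extended label score, which rates the label that defined the amniotic cells. Whether depth takes part in the mitochondrial and ribosomal differences was not tested.

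**Figure D5:**
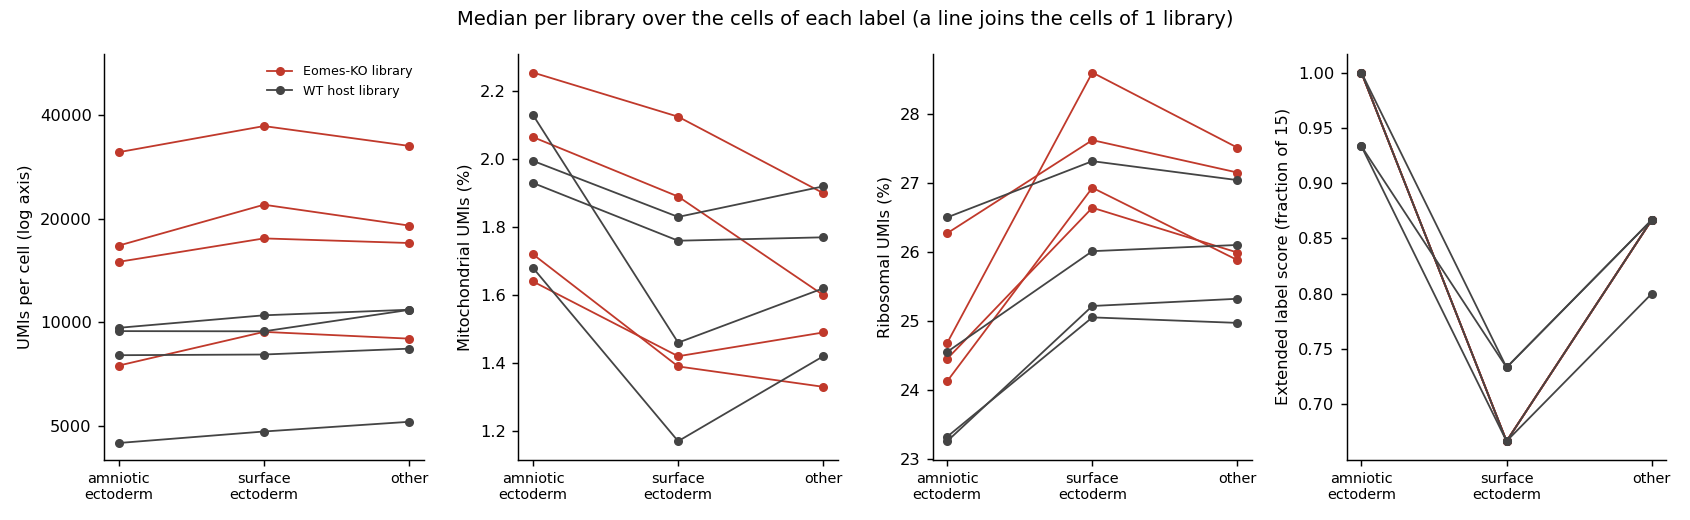
Medians per library of UMIs per cell on a log axis, mitochondrial and ribosomal percentage of UMIs and extended label score, for amniotic ectoderm, surface ectoderm and all other epiblast-derived cells, with a line joining the values of 1 library. The mitochondrial percentage and the score of amniotic cells lie above those of surface ectoderm in 8 of 8 libraries, and the ribosomal percentage lies below. In the last panel several libraries share the same values and their lines cover each other. The score of amniotic cells rates the label that defined them.

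The ribosomal percentage varied with mapped stage inside the label. Amniotic cells mapped to E8.5 had a lower median ribosomal percentage than amniotic cells mapped earlier, with differences of −2.44, −1.90, −1.96 and −1.25 points in K1 to K4 and of −2.08, −1.27, −1.23 and −4.93 points in W1 to W4, where W3 had 1 cell at E8.5. All 8 differences had this sign, with a mean of −2.13 points (exact sign-flip test, n = 8, p = 0.0078). In the 6 libraries with at least 5 cells on both sides the mean was −2.29 points (exact sign-flip test, n = 6, p = 0.031). This comparison was chosen after the values had been seen.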

How the data were processed

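Whole chimeric embryos were pooled (approximately 4 embryos per tube), dissociated and sorted, and 10x 3′ v3 libraries were made. Per the submitters' processing notes, Cell Ranger 6.0.1 and mm10 were used, and the authors added the tdTomato gene to that build. The deposited counts are UMIs per cell, without normalization. The authors removed cells by UMIs, genes, mitochondrial and ribosomal percent and doublet score before deposit. The deposited percent values are mitochondrial and ribosomal shares of a cell's UMIs. The deposited scores of the original, extended and stage labels are each the fraction of 15 nearest atlas cells with that label, and a further score rates doublets. The study's methods give larger totals of retained cells for both genotypes than the table holds, and only the cells in the table were analysed here. The number of cells sets the precision.

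A library's genotype came from the tdTomato status of its cells. Library names do not give the embryo pool, which the study's own test used as a term, so genotype alone was fitted. Cells of each library were summed per label (at least 10 cells) and compared by edgeR's quasi-likelihood test (glmQLFit, glmQLFTest; edgeR 4.0.16, R 4.3.3), with epiblast-derived cells as library size and an adjusted p threshold of 0.05. The standard error is the log2 fold change over the root of F. Exact permutation tests (4 against 4 libraries) and exact sign-flip tests (within library, 256 sign patterns) used numpy 2.4.6 and pandas 2.3.3, and exact binomial intervals scipy 1.17.1. Libraries needed at least 5 members. The p-values take libraries, not cells, as units. The tests between genotypes treat all libraries as independent, although by the study's methods each pool gave 1 Eomes-KO and 1 WT host library. The edgeR fit was also run on simulated counts, drawn independently for each label, with as many labels raised as lowered. Those counts did not copy the loss of many labels seen here, so they do not show how the fit handles it.

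Alternatives were TMM, DESeq2 1.42.0 with ratio and poscounts size factors, limma 3.58.1, other denominators, depth, score and doublet filters (10000 UMIs, score 0.5, doublet score 0.25), pseudocount 1, means and leaving out each library. Labels named are amniotic and surface ectoderm and those carried by at least 5% of members in either genotype. Non-neural ectoderm, pharyngeal endoderm, epidermis and primordial germ cells were named after values were seen. The members and lists were chosen with earlier results of these data known.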

Additional observations from a re-analysis of the deposited data

Results flagged for a closer look

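Within each genotype, 32 groups of 4 library values of amniotic ectoderm were checked for a library far from the other libraries, and 3 were past the critical value of 0.829 for the gap over the range. Chance flags about 1 in 20 groups of independent, continuous values. That rate does not apply to scores with ties or to stage shares that depend on each other. The 3 flags are therefore not set against it. The median stage label score of K1 was 0.50, where the other 3 Eomes-KO libraries shared 1 value of 0.467. The median stage label score of W3, with 9 amniotic cells, was 0.40, where the other 3 WT host libraries were at 0.467. The score moves in steps of 1 neighbour in 15. The share of amniotic cells mapped to E8.5 was 23.6% in K2, against 32.0% to 32.4% in K1, K3 and K4. Of 26 tests of whether a within-library difference between amniotic and other cells differed between genotypes, 0 passed after adjustment and 4 had an unadjusted exact permutation p under 0.05. These were, against surface ectoderm, UMIs (−3901 in Eomes-KO and −305 in WT host libraries), genes (−220.5 in Eomes-KO and 33.1 in WT host libraries) and the share at E7.75 (−3.02 points in Eomes-KO and 10.8 points in WT host libraries), and, against other cells, the original label score (0.133 in Eomes-KO and 0.067 in WT host libraries). Exact permutation of 4 against 4 libraries cannot give a p under 0.029, so a single test at that floor would not pass adjustment over 26.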

How the results depend on the processing

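The higher share of amniotic ectoderm in Eomes-KO cells kept its direction and its call under every alternative run, with edgeR, DESeq2 or limma log2 fold changes between 2.38 and 4.46 and adjusted p between 1.6e-12 and 0.0031. The lowest value came from DESeq2 with ratio size factors, which moved the median of all labels by −0.90. TMM gave 3.02 (median of all labels moved by −0.14) and poscounts size factors 3.75 (moved by 0.61). The highest came from cells with all 15 neighbours in the label. Leaving out 1 library gave 2.74 to 3.76, lowest without K1. The log2 ratio to surface ectoderm ran between 2.79 and 4.18 over the other settings (2.29 with non-neural ectoderm as denominator), and between 2.60 and 3.31 without 1 library. The log2 fold change of surface ectoderm, 0.22, was −0.052 with TMM, −0.22 with 5000 to 15000 UMIs, −0.81 under the ratio scaling of DESeq2 (adjusted p = 0.041) and 1.01 with all 15 neighbours (adjusted p = 0.019). The stage difference of 0.040 days ran between 0.025 and 0.062 without 1 library.

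Within libraries, 6 of 16 comparisons passed with at least 10 members, in place of 10, with only 6 libraries left. The 4 calls against surface ectoderm were then lost (adjusted p = 0.0625 by exact sign flips) and the 6 against other cells held (0.042). With means in place of medians 12 passed, adding the original label score (0.065, adjusted p = 0.0125) and the stage label score (−0.094, adjusted p = 0.021) against surface ectoderm. Without 1 library 9 or 10 passed. The difference in mitochondrial percent between genotypes, −0.014, was 0.0020 with means and −0.125 to 0.0796 without 1 library, and passed under none of these. The stage comparison with at least 10000 UMIs was not run, because too few WT host libraries held 5 such amniotic cells. No paired analysis was possible because the library names do not give the embryo pool. W1 and W3, with 9 amniotic cells each, limit what can be said of shares within the label.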

Other observations

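The closest single atlas cell of each amniotic cell was also given. The 468 cells had 197 distinct closest atlas cells, of which 97 were used once, 155 were used by Eomes-KO cells and 86 by WT host cells, with 44 in both. A single atlas cell was the closest one for 40 cells (39 Eomes-KO, 1 WT host), and the next took 8. By library it took 16.2%, 3.64%, 10.0% and 16.2% of amniotic cells in K1 to K4, and 0%, 2.08%, 0% and 0% in W1 to W4. The atlas cell was picked as the most used one over all members, most of which are Eomes-KO cells, so these values are a description with no test. Of these 40 cells, 29 mapped to E8.0 and 9 to E8.5.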
